A study of Saccharomyces cerevisiae with 10 samples.

Results

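The 10 meiotic genes IME1, IME2, IME4, RIM4, NDT80, REC104, MEI4, SPO13, SPO20 and SPS100 were followed across 10 RNA-seq libraries of budding yeast, Saccharomyces cerevisiae, all grown vegetatively in rich glucose medium (YPD) at 30 °C. They were picked by identifier from the 10891 rows of the deposited table, as genes of meiosis and sporulation that are low in wild-type cells, so their low level in the wild types is part of the choice. Every culture was MATa, that is haploid, and there were 2 biological replicates in each of 5 groups. In the BY4741 background, xrn1 lacked XRN1 (xrn1Δ::kanMX4), dbp2 lacked DBP2 (dbp2Δ::KanMX6), and WT was the unmutated strain. The labels give WT and xrn1 the alleles met15Δ0, ura3Δ0, leu2Δ0 and his3Δ1. They give dbp2 his3Δ0, leu2Δ0 and ura3Δ0, and list its methionine and lysine markers as met- and lys?. In the BMA64-1A background, tet-MTR4-Dox carried MTR4 under a tetOFF promoter with kanMX6, and WT-Dox did not. Both of these groups carried ade2-1, can1-100, ura3-1, trp1Δ2, his3-11,15 and the leu2 alleles 3 and 112, and both received doxycycline (10 µg/mL) during the last 6 hours of growth. Cells of all groups were harvested in mid-log phase, and the RNA left after removal of ribosomal RNA was sequenced with a stranded kit.

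Meiosis in budding yeast is normally confined to diploid cells starved of nitrogen and of a fermentable sugar. Ime1, a transcription factor, then switches on the early genes through Ume6 at the URS1 element, the kinase Ime2 drives the next steps, and the transcription factor Ndt80 activates the middle genes through the MSE element. In growing haploids these genes are held down by repressors such as Rme1 and Ume6. RNA that is still made from them can be removed by Xrn1, the main cytoplasmic 5′ to 3′ exoribonuclease, or by the nuclear exosome, to which the helicase Mtr4 delivers RNA. Dbp2 is a DEAD-box RNA helicase that acts on RNA close to transcription.

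Matches to the cores of URS1 and MSE were sought in the R64 genome sequence of RefSeq, the build named in the submitters' processing notes. The search covered a window from 250 bases before to 50 bases after each annotated start codon, and sites farther upstream were not searched. The URS1 core was searched as GGCGGC or GCCGCC, which are the same letters on the 2 strands. It was found in the windows of 4 of the 10 genes, against 5.13% of 6001 windows of annotated protein-coding genes. In REC104, SPO13 and MEI4 the core began 91, 95 and 96 bases before the ATG, and in IME4 it began 232 bases before. The sites are shown because 3 of these 4 genes are early genes with the element at nearly the same distance. They are written 5′ to 3′ on the strand of the gene with the core in capitals.
REC104 (chrVIII:412804-412833, plus): cgcacaatatttGGCGGCtattttccgcta
SPO13 (chrVIII:131940-131969, plus): tattgagaaataGCCGCCgacaaaaaggaa
MEI4 (chrV:239853-239882, minus): tatatattgctgGGCGGCtaaatgtttccg
IME4 (chrVII:142002-142031, plus): tatgcgtctttaGGCGGCttttggcgtaca

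The MSE core was searched as CACAAA or TTTGTG, again 1 motif on 2 strands. None of the windows of the 10 genes held both cores. It was found in 3 of the 10 windows, IME1, SPO20 and NDT80, against 18.8% of the 6001 windows. The NDT80 window held 2, beginning 219 and 85 bases before the ATG, and both are shown because Ndt80 is known to act on its own gene.
NDT80, distal (chrVIII:356330-356359, plus): caggccgtatgaCACAAAagagtagaaaac
NDT80, proximal (chrVIII:356464-356493, plus): attgccctccatTTTGTGtcacctatttaa
A match is a description of these letters and not a bound site. The windows of IME2, RIM4 and SPS100 held neither core. This does not show that a gene lacks the element, as it may lie outside the window.

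Values are the deposited normalized densities, in arbitrary units. Each is a number of reads divided by the length of the row and by a factor per library that follows the ERCC spike-in RNAs. A change on this scale is therefore relative to the added spike-in RNA, and whether it holds per cell cannot be read from the table. Libraries held 16.0 M to 33.5 M reads on rows, and ERCC RNAs took 1.35% to 3.14% of these. The targeted genes matched the labels. XRN1 stood at 0.102 and 0.106 in xrn1, against 2.49 and 2.28 in WT. DBP2 stood at 0.00313 and 0.00326 in dbp2, against 3.49 and 3.41 in WT. MTR4 stood at 0.429 and 0.469 in tet-MTR4-Dox, against 1.49 and 1.30 in WT-Dox, so Mtr4 RNA was lowered and not absent. The dbp2 libraries also differed from WT at LYS2, a lysine synthesis gene (0.000502 and 0.000349, against 1.10 and 0.999). They differed as well at MET17, a methionine synthesis gene also named MET15 (1.75 and 1.64, against 0.00125 and 0.000477). The labels give WT met15Δ0, so few reads there match its label, while dbp2, labelled met-, had reads on this gene. TRP1, a tryptophan synthesis gene, had reads in tet-MTR4-Dox (0.129 and 0.128, against 0 and 0.00069 in WT-Dox), although the labels give trp1Δ2 to both groups. The part of these marker differences in the values below was not tested.

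Because most RNAs rose per spike-in RNA in every mutant, each change of the 10 genes is given on a second scale as well, after rescaling each library on its median protein-coding gene. On the spike-in scale the median protein-coding gene rose by 1.90 (log2) in xrn1, 0.81 in dbp2 and 0.84 in tet-MTR4-Dox. Log2 changes are differences of log2(density + 0.00626), which understates the change of low genes. They come with an SE from limma fitted over all libraries, with 2 libraries per group, and with a limma p adjusted over all features by Benjamini-Hochberg. A change was called at an adjusted p under 0.05. On simulated data in which most features did not change, this fit made more false calls than that threshold allows. Adjusted p-values near it are therefore read as weak evidence. Limma voom on the recovered reads made the same calls on the spike-in scale for the 8 genes that passed the filter, save 1 named below. In bulk RNA, a higher level in every cell and a high level in a few cells cannot be told apart.

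All 10 genes were higher in each mutant than in its control, with both mutant libraries above both control libraries. Over all 10740 features with reads, 94.7% did so in xrn1, 86.4% in dbp2 and 92.4% in tet-MTR4-Dox, and 1.33%, 6.43% and 3.50% went the other way, so this direction is close to that of the table as a whole. What differed among the genes was the size of the rise and the mutant in which it was largest. On the spike-in scale IME2, RIM4, MEI4 and SPO13 were highest in xrn1, IME1 and SPS100 in dbp2, and REC104, NDT80, SPO20 and IME4 in tet-MTR4-Dox. For SPO13 the first 2 places, xrn1 and tet-MTR4-Dox, overlapped, and so did tet-MTR4-Dox and xrn1 for IME4. This order depends on the scale. Relative to the median protein-coding gene, RIM4 changed most in dbp2 (2.96, against 2.26 in xrn1), SPO13 most in tet-MTR4-Dox (1.68, against 1.03 in xrn1), and MEI4 was at 1.50 in dbp2 and 1.48 in tet-MTR4-Dox, against 0.95 in xrn1.

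**Figure D1:**
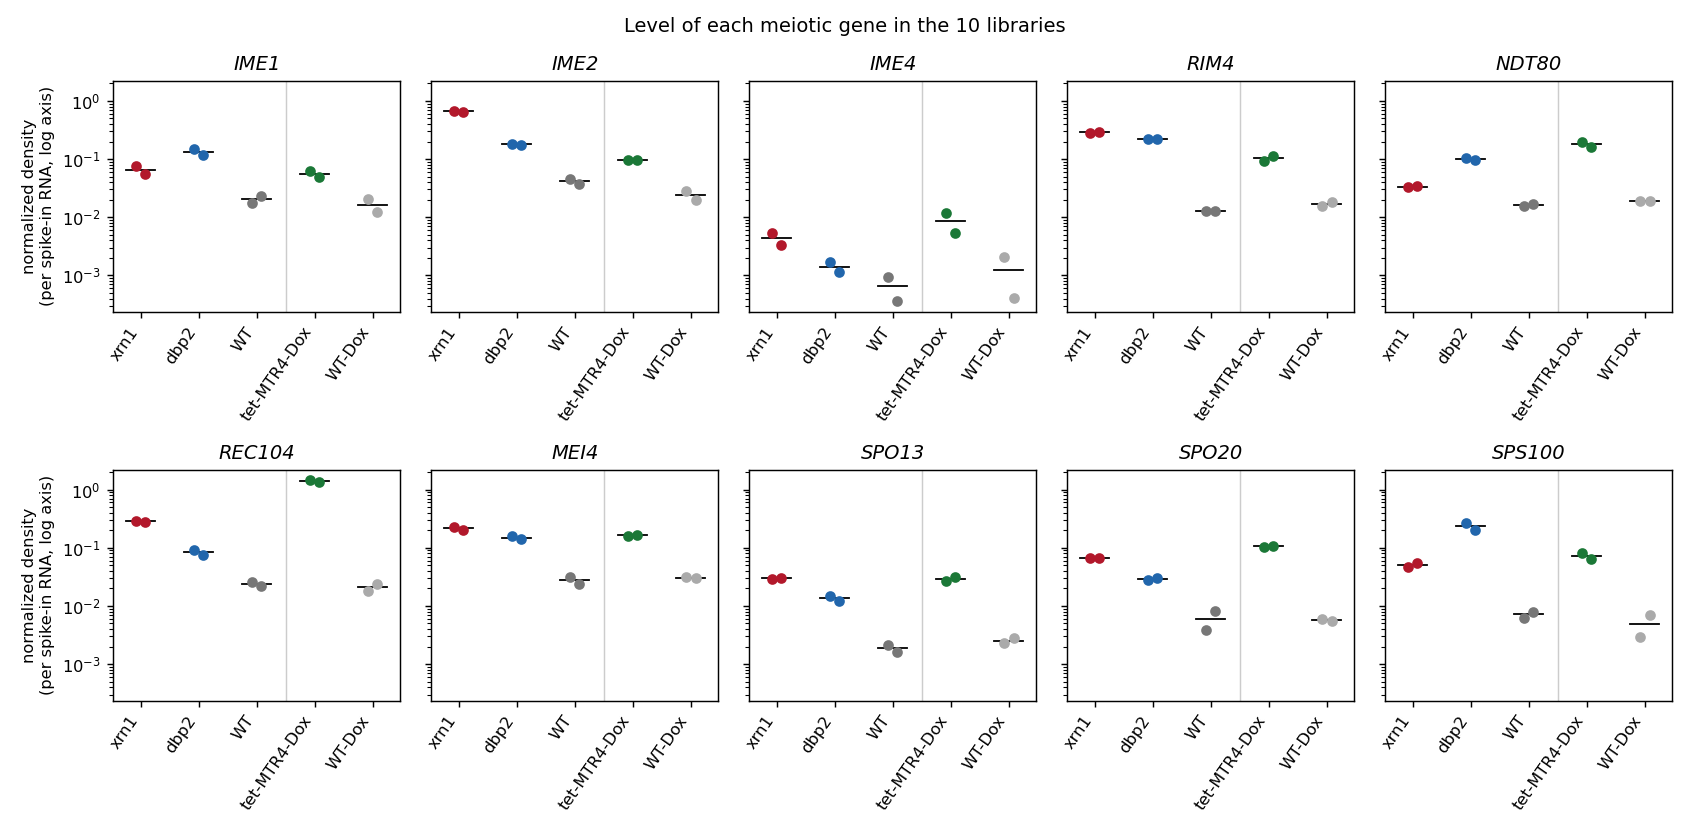
Normalized density of each of the 10 meiotic genes (log axis, arbitrary units per spike-in RNA) in xrn1, dbp2, WT, tet-MTR4-Dox and WT-Dox; each point is 1 library and each bar the mean of 2 libraries. In every panel the points of the mutants lie above those of their own wild type, and REC104 in tet-MTR4-Dox, at 1.45 and 1.37, is the highest value shown.

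The regulators of entry come first. IME1 (YJR094C, chromosome X, 604569 to 605651, minus strand, 1 exon) is the activator of the early genes. In xrn1 its densities were 0.0753 and 0.0544, in dbp2 0.147 and 0.118, and in WT 0.0173 and 0.0233. The tet-MTR4-Dox libraries gave 0.0624 and 0.0488, against 0.0205 and 0.0122 in WT-Dox. The dbp2 libraries were above all others, while xrn1 and tet-MTR4-Dox overlapped, as did WT and WT-Dox. The log2 change was 2.39 ± 0.23 (SE) in dbp2 (limma adjusted p = 3.6e-06), 1.41 ± 0.23 in xrn1 (adjusted p = 0.00014) and 1.47 ± 0.23 in tet-MTR4-Dox (adjusted p = 0.00011). Relative to the median protein-coding gene the rise held in dbp2 (1.71 ± 0.24, adjusted p = 0.00023). In xrn1 it did not, and the sign turned (-0.20 ± 0.24, adjusted p = 0.47). In tet-MTR4-Dox it was 0.83 ± 0.24 (adjusted p = 0.01), and 0.33 with an adjusted p of 0.23 when libraries were rescaled on the median of all features.

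IME2 (YJL106W, chromosome X, 221390 to 223327, plus strand, 1 exon) encodes the meiosis-specific kinase that Ime1 switches on. Densities of 0.675 and 0.654 were measured in xrn1, 0.180 and 0.177 in the dbp2 libraries and 0.0463 and 0.0374 in WT. With Mtr4 depleted the density was 0.0968 and 0.0978, against 0.0282 and 0.0202 in WT-Dox. No 2 groups overlapped, and xrn1 stood apart at 15.9 times the WT mean, where dbp2 was at 4.26 times WT and tet-MTR4-Dox at 4.02 times WT-Dox. The log2 changes were 3.81 ± 0.14 in xrn1 (limma adjusted p = 6.7e-10), 1.95 ± 0.14 in dbp2 (adjusted p = 4.4e-07) and 1.78 ± 0.14 in tet-MTR4-Dox (adjusted p = 4.1e-07). All 3 stayed above 0 relative to the median protein-coding gene, at 1.98, 1.21 and 1.08. The WT densities rested on 148 and 157 reads, and those of xrn1 on 1866 and 1456 reads.

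RIM4 (YHL024W, chromosome VIII, 56649 to 58790, plus strand, 1 exon) encodes an RNA-binding protein that holds back the translation of later meiotic mRNAs. The 2 xrn1 libraries gave 0.283 and 0.295, those of dbp2 0.225 and 0.219 and those of WT 0.0127 and 0.0130. In tet-MTR4-Dox they were 0.0936 and 0.111, against 0.0156 and 0.0180 in WT-Dox. The 2 deletion strains were thus well above both wild types, at 22.5 and 17.3 times WT, and tet-MTR4-Dox was at 6.10 times WT-Dox. Its log2 change was 3.95 ± 0.12 in xrn1 (limma adjusted p = 2.3e-10), 3.58 ± 0.12 in dbp2 (adjusted p = 5.9e-09) and 2.23 ± 0.12 in tet-MTR4-Dox (adjusted p = 2.4e-08). On the relative scale it was larger in dbp2 (2.96 ± 0.13) than in xrn1 (2.26 ± 0.13), with 1.58 ± 0.13 in tet-MTR4-Dox.

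NDT80 (YHR124W, chromosome VIII, 356561 to 358444, plus strand, 1 exon) encodes the activator of the middle genes. Its density was 0.0325 and 0.0348 without Xrn1, 0.106 and 0.0972 without Dbp2 and 0.0155 and 0.0170 in WT. The tet-MTR4-Dox libraries gave 0.199 and 0.161, against 0.0187 and 0.0190 in WT-Dox. Its level was thus 9.56 times the control in tet-MTR4-Dox and 6.25 times in dbp2, but 2.07 times in xrn1. The log2 change of 0.83 ± 0.14 in xrn1 (limma adjusted p = 0.00021) turned to -0.65 ± 0.15 relative to the median protein-coding gene (adjusted p = 0.0033), so that NDT80 was the 1 gene of the set called lower on that scale. In dbp2 it rose by 2.26 ± 0.14 (adjusted p = 1.6e-07) and by 1.61 in relative terms, and in tet-MTR4-Dox by 2.88 ± 0.14 (adjusted p = 9.8e-09) and 2.21.

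IME4 (YGL192W, chromosome VII, 142246 to 144048, plus strand, 1 exon) encodes the enzyme that places m6A on meiotic mRNAs, and in haploids an antisense transcript is known to keep it off. It was the lowest gene of the set, with 10 and 5 reads in the xrn1 libraries, 3 and 3 in those of dbp2 and 2 and 1 in WT. It had 16 and 10 reads in tet-MTR4-Dox, against 4 and 1 in WT-Dox. Per spike-in RNA, the pooled reads gave a ratio of 7.40 in xrn1 (exact 95% interval 2.09 to 39.9), 2.25 in dbp2 (0.481 to 13.9) and 7.01 in tet-MTR4-Dox (2.65 to 23.4). These intervals cover counting error only. IME4 did not pass the filter on low densities, a mean of 0.0344, and without that filter its log2 change was 0.62 ± 0.26 in xrn1 (limma adjusted p = 0.042), 0.15 ± 0.26 in dbp2 (adjusted p = 0.59) and 0.95 ± 0.26 in tet-MTR4-Dox (adjusted p = 0.0053). In relative terms the value was 0.16 in xrn1 (adjusted p = 0.62), 0.05 in dbp2 (adjusted p = 0.87) and 0.79 in tet-MTR4-Dox (adjusted p = 0.019).

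REC104 and MEI4 act with Spo11 in making the DNA breaks that start meiotic recombination. REC104 (YHR157W, chromosome VIII, 412907 to 413455, plus strand, 1 exon) had densities of 0.290 and 0.281 in the xrn1 libraries, 0.0916 and 0.0745 in those of dbp2 and 0.0263 and 0.0219 in WT. With Mtr4 depleted the density was 1.45 and 1.37, against 0.0180 and 0.0243 in WT-Dox. The tet-MTR4-Dox libraries held 1129 and 1485 of its reads, against 20 and 34 in WT-Dox, and lay 66.6 times above that control by mean density. In log2 the change was 5.70 ± 0.14 (limma adjusted p = 1.9e-10), and 5.01 ± 0.15 relative to the median protein-coding gene. The rises in xrn1 (3.27 ± 0.14, adjusted p = 2.1e-09) and dbp2 (1.55 ± 0.14, adjusted p = 2.3e-06) were smaller, at 1.51 and 0.87 in relative terms. The row length inferred from these densities is 1129 bases, and the annotated REC104 exon is 549. By that length 580 bases of the row lie outside the reading frame.

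MEI4 (YER044C-A, chromosome V, 238460 to 239774, minus strand, 2 exons) stood at 5.36 to 7.75 times its control in all 3 mutants. Its densities were 0.226 and 0.204 in the xrn1 libraries, 0.158 and 0.141 in those of dbp2 and 0.0312 and 0.0242 in WT. In tet-MTR4-Dox they were 0.160 and 0.166, against 0.0312 and 0.0297 in WT-Dox. Log2 changes were 2.71 ± 0.13 in xrn1 (limma adjusted p = 4.8e-09), 2.20 ± 0.13 in dbp2 (adjusted p = 1.2e-07) and 2.21 ± 0.13 in tet-MTR4-Dox (adjusted p = 4e-08). In relative terms they were 0.95, 1.50 and 1.48, so xrn1, first on the spike-in scale, came last.

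SPO13, SPO20 and SPS100 act later, in the first division and in spore formation. SPO13 (YHR014W, chromosome VIII, 132047 to 132922, plus strand, 1 exon) helps to keep sister chromatids together in meiosis I. In xrn1 its densities were 0.0293 and 0.0303, in dbp2 0.0151 and 0.0122, and in WT 0.00212 and 0.00161. The tet-MTR4-Dox libraries gave 0.0264 and 0.0310, against 0.00233 and 0.00276 in WT-Dox. Every mutant library was above every wild type, but the WT values rested on 2 and 2 reads and the WT-Dox values on 2 and 3. The ratio of pooled reads per spike-in RNA was 16.3 in xrn1 (exact 95% interval 5.93 to 62.4), 7.32 in dbp2 (2.54 to 28.9) and 11.3 in tet-MTR4-Dox (4.49 to 36.7). SPO13 also fell under the filter on low densities. Without it the log2 changes were 2.15 ± 0.17, 1.29 ± 0.17 and 1.99 ± 0.17, in xrn1, dbp2 and tet-MTR4-Dox (limma adjusted p = 6.4e-07, 6.1e-05 and 1.4e-06), and 1.03, 1.01 and 1.68 in relative terms.

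SPO20 (YMR017W, chromosome XIII, 307489 to 308682, plus strand, 1 exon) encodes a SNARE protein of the membrane that encloses the spore. Densities of 0.0673 and 0.0668 were measured in xrn1, 0.0276 and 0.0307 in the dbp2 libraries and 0.00388 and 0.00828 in WT. With Mtr4 depleted the density was 0.103 and 0.109, against 0.00597 and 0.00541 in WT-Dox. The rise was largest in tet-MTR4-Dox, with a log2 change of 3.23 ± 0.18 (limma adjusted p = 2.8e-08) and 2.76 in relative terms. It was 2.59 ± 0.18 in xrn1 (adjusted p = 1.2e-07) and 1.54 ± 0.18 in dbp2 (adjusted p = 1.7e-05), which came to 1.14 and 1.07 in relative terms.

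SPS100 (YHR139C, chromosome VIII, 378219 to 379199, minus strand, 1 exon) encodes a protein of late spore wall maturation. The 2 xrn1 libraries gave 0.0462 and 0.0543, those of dbp2 0.263 and 0.204 and those of WT 0.00631 and 0.00802. In tet-MTR4-Dox they were 0.0814 and 0.0635, against 0.00289 and 0.00687 in WT-Dox. The dbp2 libraries were the highest by a wide margin, with 421 and 470 reads, against 12 and 20 in WT. The log2 change was 4.15 ± 0.21 in dbp2 (limma adjusted p = 4.6e-08), 2.07 ± 0.21 in xrn1 (adjusted p = 3.2e-06) and 2.83 ± 0.21 in tet-MTR4-Dox (adjusted p = 2.7e-07). In relative terms it was 3.61 ± 0.26 in dbp2 and 2.41 ± 0.26 in tet-MTR4-Dox, and it missed the threshold in xrn1 (0.64 ± 0.26, adjusted p = 0.052).

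Of the 10 genes, 8 passed the filter on low densities. In WT 9 of the 10 had a mean below that filter, and in WT-Dox all 10 did, so they passed through the mutant libraries and their counts are a description. All 8 were called higher in xrn1 (95.0% of the 9666 features tested), in dbp2 (84.8%) and in tet-MTR4-Dox (91.3%), and 0 were called lower in xrn1 (0.869%), dbp2 (5.32%) or tet-MTR4-Dox (3.27%). Relative to the median protein-coding gene, 5 of the 8 were higher in xrn1 (42.3%) and 1 was lower (32.9%), and all 8 were higher in dbp2 (45.4%) and in tet-MTR4-Dox (63.0%). With no filter, 10 of 10 were called higher in xrn1 (92.7% of 10740 features), 9 of 10 in dbp2 (81.6%) and 10 of 10 in tet-MTR4-Dox (90.7%), the exception being IME4 in dbp2, and 0 were called lower (0.791%, 4.95% and 2.96%). Relative to the median protein-coding gene and without the filter, 6 of 10 were higher in xrn1 (40.1%) and 1 of 10 lower (30.0%). On that scale 9 of 10 were higher in dbp2 (43.9%) and 10 of 10 in tet-MTR4-Dox (64.3%), while 0 were lower in dbp2 (24.7%) or in tet-MTR4-Dox (21.7%). The median over the 10 genes on that scale was 0.99 in xrn1, 1.36 in dbp2 and 1.63 in tet-MTR4-Dox, beside 0.13, 0.23 and 0.71 over all features.

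**Figure D2:**
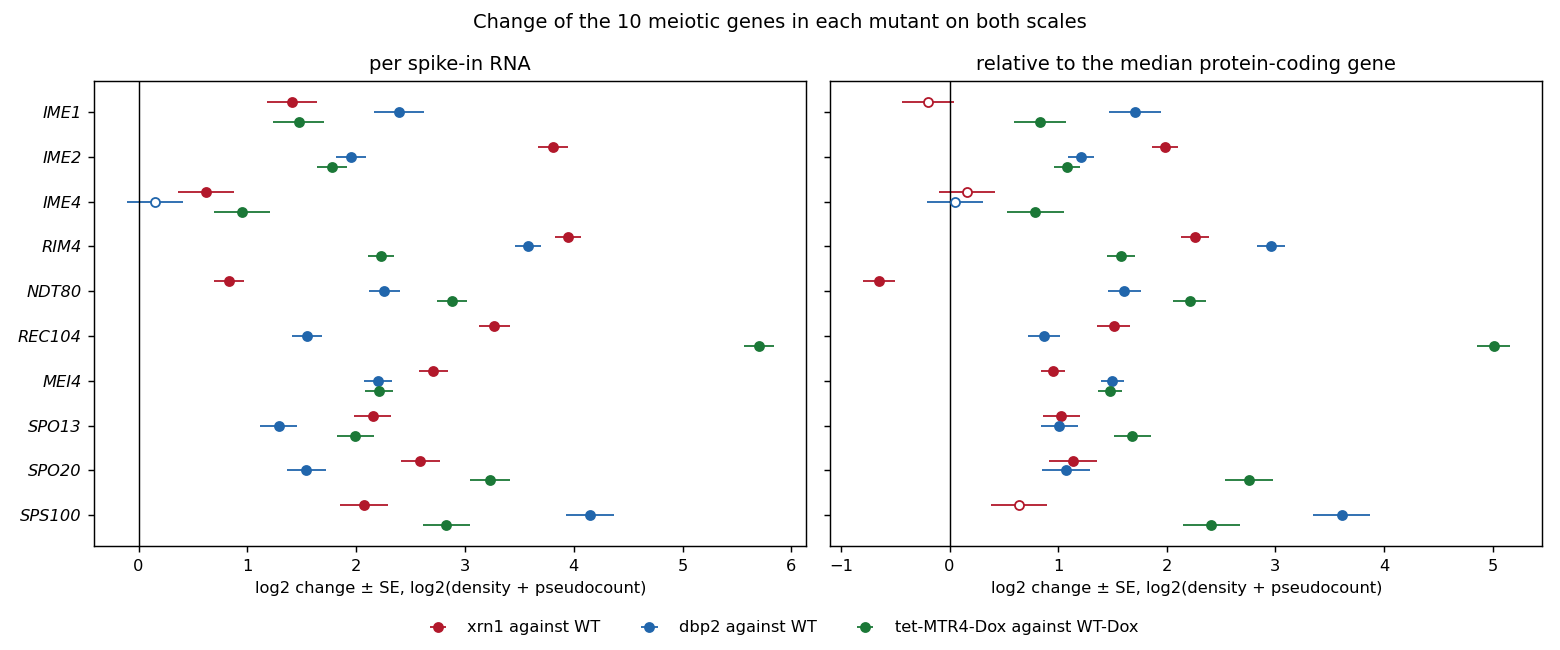
Log2 change of each meiotic gene in xrn1 and dbp2 against WT and in tet-MTR4-Dox against WT-Dox, per spike-in RNA (left) and relative to the median protein-coding gene (right), from fits without a filter on low densities; points are estimates, bars the SE of limma, and open points missed an adjusted p of 0.05. The points of IME1 and NDT80 in xrn1 pass from the right of 0 on the left panel to its left on the right panel, and REC104 in tet-MTR4-Dox lies farthest right on both.

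Ranks among the 5897 protein-coding genes do not depend on the scaling, and no test was made on them. A percentile is the rank of a density among those of the protein-coding genes of the library, in percent, with equal densities given their mean rank. In WT its mean over the libraries ran from 1.97 for IME4 to 10.8 for IME2. REC104 stood at the 75.6th percentile in tet-MTR4-Dox, against the 8.06th in WT-Dox. NDT80 stood at 13.4 in tet-MTR4-Dox, against 7.62 in WT-Dox. SPS100 was at 16.5 and RIM4 at 15.6 in dbp2, against 5.16 and 6.55 in WT. IME2 was at 20.0 in xrn1, against 10.8 in WT. By mean percentile, several genes ranked lower than in the control although their density was higher. In xrn1 these were IME1 (6.16, against 8.02 in WT), NDT80 (4.60, against 7.22) and IME4 (1.41, against 1.97). In dbp2 they were IME4 (0.950, against 1.97 in WT) and REC104 (8.33, against 8.56). In tet-MTR4-Dox they were IME1 (5.28, against 7.18 in WT-Dox), IME2 (7.73, against 8.55) and IME4 (1.54, against 2.11). Libraries of mutant and control overlapped in rank for REC104 in dbp2 (8.82 and 7.83, against 8.73 and 8.39). They also overlapped for IME4 in tet-MTR4-Dox (1.88 and 1.19, against 2.46 and 1.76). REC104 in dbp2 and IME1 and IME2 in tet-MTR4-Dox were thus called higher relative to the median protein-coding gene and yet did not gain in rank. The same held for IME4 in tet-MTR4-Dox in the fit with no filter (0.79, limma adjusted p = 0.019).

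**Figure D3:**
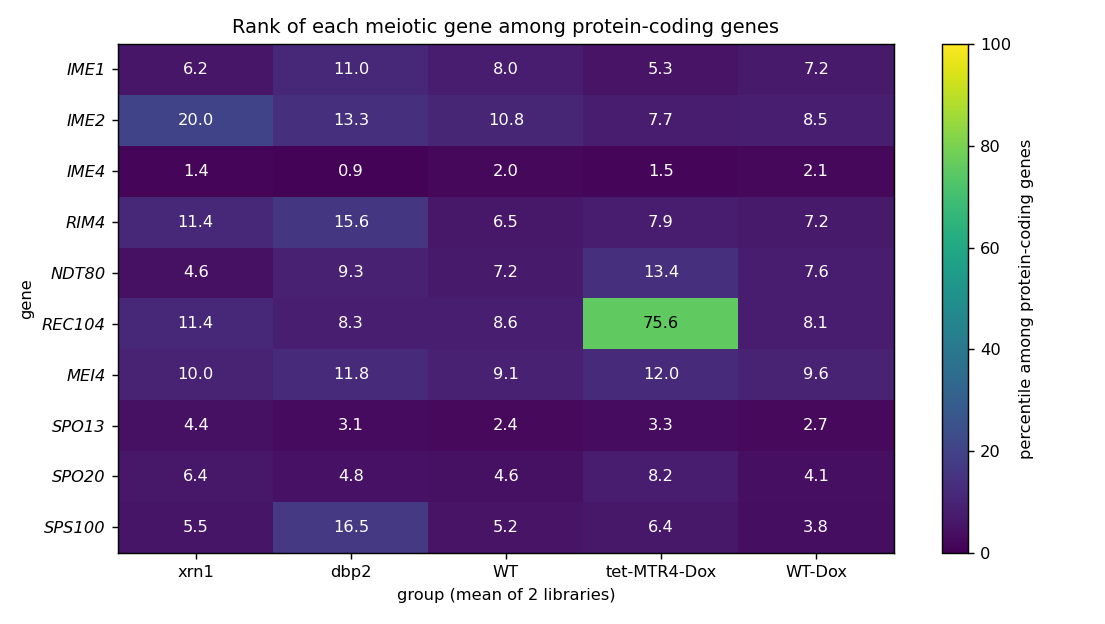
Percentile of each meiotic gene among protein-coding genes by normalized density, as the mean of 2 libraries, in xrn1, dbp2, WT, tet-MTR4-Dox and WT-Dox; colour runs from 0 to 100. REC104 in tet-MTR4-Dox, at 75.6, stands apart, and the next highest is IME2 in xrn1 at 20.0.

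Whether a gene responded more in one mutant than in another was tested directly. Between the 2 deletion strains, which share the WT control, dbp2 was compared with xrn1 itself. SPS100 (2.08 ± 0.21, limma adjusted p = 4.8e-06), NDT80 (1.43 ± 0.14, adjusted p = 3.5e-06) and IME1 (0.97 ± 0.23, adjusted p = 0.0026) were higher in dbp2, where 8.56% of features were. IME2 (-1.86 ± 0.14, adjusted p = 4e-07) and REC104 (-1.72 ± 0.14, adjusted p = 8.2e-07) were lower in dbp2, as were SPO20 (-1.05), MEI4 (-0.51) and RIM4 (-0.37, adjusted p = 0.018), where 77.0% of features were. The call of RIM4 was lost without any 1 of the 4 libraries of these strains, with adjusted p-values of 0.055 to 0.093. In relative terms 5 genes were higher in dbp2 (39.7% of features) and 2 were lower (34.5%), and the counts were also 5 (37.8%) and 2 (32.0%) over all 10 genes with no filter. The first 3 remained higher at 2.98, 2.26 and 1.91, and IME2 and REC104 remained lower at -0.77 and -0.64, but RIM4 (0.70, adjusted p = 0.0011) and MEI4 (0.55, adjusted p = 0.002) turned to higher and SPO20 (-0.08, adjusted p = 0.76) was no longer called.

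The effect of Mtr4 depletion minus that of XRN1 deletion was positive for REC104 (2.43 ± 0.20, limma adjusted p = 1.1e-06) and NDT80 (2.06 ± 0.20, adjusted p = 3.9e-06). It was negative for IME2 (-2.03 ± 0.20, adjusted p = 4.2e-06) and RIM4 (-1.71 ± 0.18, adjusted p = 5.5e-06). These 4 kept their sign and their call in relative terms (3.50, 2.86, -0.90 and -0.68). IME1 was not called on the spike-in scale (0.05 ± 0.33, adjusted p = 0.88) but was positive in relative terms (1.03 ± 0.34, adjusted p = 0.021). In all, 4 of 8 genes were called positive (29.2% of features) and 3 negative (56.5%). In relative terms 6 of 8 were positive (56.9%) and 2 negative (22.7%), and 7 of 10 (56.9%) and 2 of 10 (20.6%) with no filter. The remaining calls on the spike-in scale rested on single libraries. SPS100 (0.76 ± 0.30, adjusted p = 0.037) was at 0.67 without WT replicate 2, 0.66 without xrn1 replicate 1, 0.50 without WT-Dox replicate 1 and 0.60 without tet-MTR4-Dox replicate 1, and was not called in these 4 fits. MEI4 (-0.50 ± 0.19, adjusted p = 0.027) was not called without the same 4 libraries, at -0.35, -0.43, -0.47 and -0.47, and turned to 0.53 in relative terms. SPO20 (0.64 ± 0.26, adjusted p = 0.041) kept its call only without WT replicate 1 and was at 0.38 without WT replicate 2, and voom did not call it (0.71, adjusted p = 0.11).

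The effect of Mtr4 depletion minus that of DBP2 deletion was positive for REC104 (4.15 ± 0.20, limma adjusted p = 7.9e-08), SPO20 (1.68 ± 0.26, adjusted p = 0.00021) and NDT80 (0.63 ± 0.20, adjusted p = 0.019), 3 of 8 genes beside 52.2% of features. It was negative for RIM4 (-1.34 ± 0.18, adjusted p = 6.4e-05), SPS100 (-1.32 ± 0.30, adjusted p = 0.003) and IME1 (-0.92 ± 0.33, adjusted p = 0.03), 3 of 8 beside 15.4%. In relative terms the same 3 of 8 were positive (53.4%), at 4.14, 1.70 and 0.60, and the same 3 negative (18.3%), at -1.38, -1.20 and -0.88. The call of IME1 was lost with a pseudocount 4 times smaller (-0.92, adjusted p = 0.063) and without WT replicate 1 (-0.75), dbp2 replicate 1 (-0.77), WT-Dox replicate 1 (-0.65) or tet-MTR4-Dox replicate 2 (-0.76). That of NDT80 was lost without dbp2 replicate 2 (0.57) or tet-MTR4-Dox replicate 1 (0.48), and NDT80 was at 0.22 (adjusted p = 0.34) when libraries were rescaled on the median of all features. IME2 (-0.17 ± 0.20, adjusted p = 0.48) and MEI4 (0.00 ± 0.19, adjusted p = 0.99) were not called, but IME2 was under the rescaling on all features (-0.49 ± 0.18, adjusted p = 0.037). These effects come from 2 strain backgrounds, and doxycycline was given in only one of them.

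Between the wild types, IME2 alone was called, lower in WT-Dox than in WT (-0.67 ± 0.14, limma adjusted p = 0.0039), where 33.0% of features were lower and 11.5% higher. In relative terms IME2 was again lower (-0.58, adjusted p = 0.0052; 23.5% of features) and RIM4 was higher (0.43, adjusted p = 0.028; 21.9%). Strain background and doxycycline cannot be told apart in that comparison. The other 7 genes tested lay between -0.29 and 0.27.

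Other genes of the meiotic program gave a setting for these values. Among 25 other early genes, which act in recombination and chromosome pairing, 14 passed the filter and 14 of them rose in xrn1, 14 in dbp2 and 13 in tet-MTR4-Dox, beside 95.0%, 84.8% and 91.3% of all features. Relative to the median protein-coding gene 9, 6 and 8 were higher (42.3%, 45.4% and 63.0% of features), and 1 was lower in each mutant (32.9%, 27.1% and 24.1%). The lower gene was SKI8 each time (-0.25, -0.26 and -0.22). As with the 10 genes, some of these and of the lists below passed the filter through the mutant libraries. With no filter 14, 13 and 16 of 25 were higher in relative terms (40.1%, 43.9% and 64.3%), and 2, 2 and 1 lower (30.0%, 24.7% and 21.7%). With no filter on the spike-in scale the counts were 23, 21 and 24 of 25 (92.7%, 81.6% and 90.7%), and the medians were 1.92, 1.03 and 1.29, beside 1.83, 0.92 and 1.43 over all features. Among those that passed the filter, the largest called rise in xrn1 was in REC107, a partner of Mei4 in break formation (1.34 and 1.36, against 0.169 and 0.131 in WT, log2 3.13 ± 0.14, relative 1.24). In dbp2 it was in SPO22, a synapsis gene (0.142 and 0.167, against 0.0136 and 0.0137 in WT, log2 3.01 ± 0.16, relative 2.38). In tet-MTR4-Dox it was in REC102, a further break gene (0.140 and 0.131, against 0.0103 and 0.0118 in WT-Dox, log2 3.04 ± 0.13, relative 2.45).

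Of 27 other middle genes, which Ndt80 controls for the most part, 14 passed the filter. In xrn1 14 rose and 0 fell, and in dbp2 and in tet-MTR4-Dox 13 rose and 1 fell, again beside 95.0%, 84.8% and 91.3% of features that rose. In relative terms 8, 10 and 11 of the 14 were higher (42.3%, 45.4% and 63.0% of features). On that scale 0, 1 and 2 were lower (32.9%, 27.1% and 24.1%). With no filter 11, 17 and 20 of the 27 were higher in relative terms (40.1%, 43.9% and 64.3%). Again 0, 1 and 2 were lower (30.0%, 24.7% and 21.7%). In xrn1 the share of middle genes higher was thus close to that of all features. With no filter on the spike-in scale 24, 21 and 24 of 27 rose, beside 92.7%, 81.6% and 90.7% of features. Their medians were 1.83, 1.36 and 1.57, beside 1.83, 0.92 and 1.43 over all features. The gene that fell was SPS4 in both cases, to 0.0238 and 0.0317 in dbp2, against 0.0655 and 0.0503 in WT (log2 -0.92 ± 0.17, relative -1.64), and to 0.0271 and 0.0238 in tet-MTR4-Dox, against 0.105 and 0.0942 in WT-Dox (log2 -1.74 ± 0.17, relative -2.53). SPS1, a kinase gene of spore wall formation, rose in tet-MTR4-Dox to 0.230 and 0.237, against 0.0208 and 0.0219 in WT-Dox (log2 3.12 ± 0.19, relative 2.43). SGA1, a sporulation glucoamylase gene, rose in xrn1 by 3.14 ± 0.17 (relative 1.50) and SPO19 in dbp2 by 2.90 ± 0.28 (relative 2.33). Of 5 other late genes, 4 passed the filter, and 4 rose in xrn1, 3 in dbp2 and 4 in tet-MTR4-Dox (95.0%, 84.8% and 91.3% of features). In relative terms 2, 3 and 4 were higher (42.3%, 45.4% and 63.0% of features) and 0, 1 and 0 lower (32.9%, 27.1% and 24.1%). They were led by SPR1, a glucanase gene, in xrn1 (log2 2.45, relative 0.71) and in tet-MTR4-Dox (2.42, relative 1.77), and by DIT1, which makes the dityrosine of the spore wall, in dbp2 (2.45, relative 1.78). With no filter 3, 4 and 5 of the 5 late genes were higher in relative terms (40.1%, 43.9% and 64.3%). On that scale 0, 1 and 0 were lower (30.0%, 24.7% and 21.7%).

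**Figure D4:**
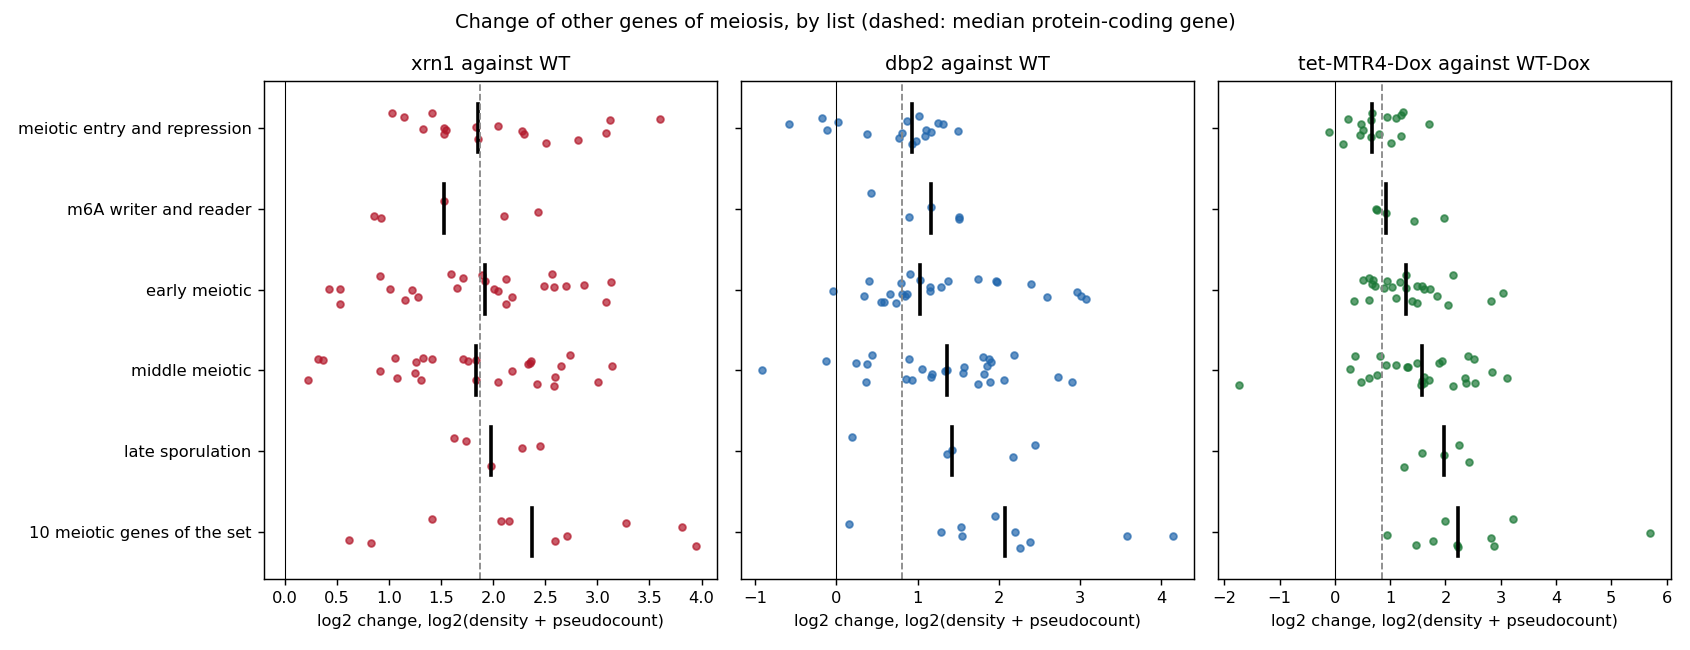
Log2 change per spike-in RNA of other genes of meiosis by list, and of the 10 genes in the bottom row, without a filter on low densities, in xrn1 and dbp2 against WT and in tet-MTR4-Dox against WT-Dox; each point is 1 gene, black bars are list medians, and the dashed line is the median protein-coding gene. Medians of the early, middle and late lists in tet-MTR4-Dox, at 1.29, 1.57 and 1.97, lie to the right of the dashed line at 0.86. The median over all features there, not drawn, is 1.43, above that of the early list. In xrn1 the same lists, at 1.92, 1.83 and 1.98, lie on both sides of the dashed line at 1.87. SPS4, at -1.74, is the lowest point of the middle list in tet-MTR4-Dox.

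Of 17 repressors and other regulators of entry, all passed the filter. On the spike-in scale 17 rose and 0 fell in xrn1, 13 rose and 2 fell in dbp2, and 15 rose and 0 fell in tet-MTR4-Dox, beside the shares of all features (95.0%, 84.8% and 91.3% higher, 0.869%, 5.32% and 3.27% lower). Relative to the median protein-coding gene the counts were 8 higher and 7 lower in xrn1, 8 and 5 in dbp2, and 6 and 8 in tet-MTR4-Dox. Over all features on that scale, 42.3%, 45.4% and 63.0% were higher and 32.9%, 27.1% and 24.1% lower. RME1, the repressor of IME1 in haploids, had densities of 1.94 and 1.85 in dbp2, against 0.708 and 0.625 in WT, a log2 rise of 1.50 ± 0.09 (limma adjusted p = 1.2e-07) and of 0.70 in relative terms. TUP1, a general co-repressor, fell in dbp2 to 0.724 and 0.706, against 1.11 and 1.04 in WT (log2 -0.59 ± 0.06, relative -1.39). HOS2, a histone deacetylase of the Set3 complex, rose to 4.14 and 4.09 in xrn1, against 0.333 and 0.335 in WT (log2 3.60 ± 0.06, relative 1.70), and to 0.971 and 0.957 in tet-MTR4-Dox, against 0.309 and 0.276 in WT-Dox (log2 1.70 ± 0.06, relative 0.88). Of 5 partners and readers of Ime4, 3 passed the filter and all 3 rose in each mutant. In relative terms 2, 1 and 1 were higher and 1, 1 and 0 lower, beside the shares of all features given above for each scale. They were led by MUM2 in xrn1 (log2 2.43, relative 0.53) and in dbp2 (1.16, relative 0.36) and by KAR4 in tet-MTR4-Dox (1.44, relative 0.62). With no filter 2, 3 and 3 of these 5 were higher in relative terms (40.1%, 43.9% and 64.3% of features). On that scale 1, 1 and 0 were lower (30.0%, 24.7% and 21.7%).

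Markers of cell type were read beside the set. The 5 MATa markers summed to 81.8 and 83.0 in the xrn1 libraries, 60.0 and 57.1 in those of dbp2 and 35.4 and 35.2 in WT, and to 73.0 and 71.8 in tet-MTR4-Dox, against 23.0 and 21.9 in WT-Dox. The 4 MATalpha markers summed to 2.18 and 2.15 in the xrn1 libraries, 0.319 and 0.305 in those of dbp2 and 0.168 and 0.149 in WT. They summed to 0.546 and 0.579 in tet-MTR4-Dox, against 0.145 and 0.151 in WT-Dox. They were thus far below the MATa markers in all libraries, and SAG1 alone made up 2.15 and 2.12 of the sum in xrn1. The 5 haploid genes that are off in MATa/MATalpha diploids summed to 3.19 or more in every library. The 2 spore wall genes DIT1 and DIT2 summed to 0.144 and 0.141 in the xrn1 libraries, 0.155 and 0.140 in those of dbp2 and 0.0225 and 0.0191 in WT, and to 0.196 and 0.180 in tet-MTR4-Dox, against 0.0449 and 0.0502 in WT-Dox. No marker was at 0 in any library. Among the MATa markers, BAR1 fell in dbp2 to 0.534 and 0.502, against 2.75 and 2.65 in WT (log2 -2.37 ± 0.08, relative -3.17). It also fell in tet-MTR4-Dox, to 0.895 and 1.06, against 1.74 and 1.71 in WT-Dox (-0.82 ± 0.08, relative -1.65). In relative terms 1, 1 and 2 of the 5 MATa markers were higher in xrn1, dbp2 and tet-MTR4-Dox (42.3%, 45.4% and 63.0% of features). In turn 4, 3 and 2 were lower (32.9%, 27.1% and 24.1%). Of the 4 MATalpha markers, 1, 1 and 3 were higher in relative terms with no filter (40.1%, 43.9% and 64.3% of features). In the same fits 2, 0 and 0 were lower (30.0%, 24.7% and 21.7%). In tet-MTR4-Dox MF(ALPHA)2 rose to 0.1715 and 0.1785, against 0.01965 and 0.01112 in WT-Dox (log2 3.09 ± 0.25, relative 2.46). The part of cells of another type in the values of the set was not tested.

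For each gene that passed the filter, the protein-coding gene with the most similar profile was found among 5605 others, as the smallest root-mean-square distance between centred log2 densities over the 10 libraries, which share their scaling. MEI4 was closest to ZPS1 (distance 0.12), IME2 to MPO1 (0.16), SPO20 to YCL049C (0.18), RIM4 to NRG1 (0.19), IME1 to RIE1 (0.20), NDT80 to YHR054C (0.22), SPS100 to MOH1 (0.33) and REC104 to FLX1 (0.38). SPS100 and REC104 thus had the farthest neighbours by this distance, which tends to be larger for genes with larger changes. By Pearson correlation with their neighbours, at 0.98 and 0.99, they did not stand apart, as the other pairs were at 0.98 to 1.00. All 8 neighbours had the higher mean density, as IME1 averaged 0.0579 and RIE1 0.943 over the libraries.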

How the data were processed

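The authors deposited normalized densities, read here as signal, for 10891 rows in 10 libraries, and a mean per group that was not used. Per the submitters' processing notes, the tools included DESeq2, featureCounts 2.0.0, HISAT2 2.2.0 and Trim Galore, with no role given, and the build was R64. Per the labels' protocols, the libraries came from stranded preparations of RNA depleted of ribosomal RNA.

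Every density equals a whole number of reads, within 0.02 reads, over a row length and a factor per library. The lengths were not given. At the annotated length 13.7% of RefSeq rows with reads gave whole reads. For 10025 of 10832 features above 0 the length was instead the shortest found that gave whole reads in all libraries. These lengths, and the reads that follow from them, are thus inferred. Among 17 pairs of annotated genes overlapping on opposite strands (at least 80% of the shorter gene), the median ratio of the lower to the higher density was 0.0473, as in counting by strand. The inferred row lengths of 8 of the 10 genes exceed the annotated exons, by 26 to 1023 bases. Positions of noncoding rows were not used here, and reads shared with noncoding rows on the same strand were not tested.

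A filter kept 9666 of 10740 features, those whose mean density reached the 10th percentile (0.0344). After a pseudocount of 0.00626 (the 5th percentile of densities), log2 values were fitted with limma 3.58.1 in R 4.3.3 (lmFit, then eBayes with trend) on all 10 libraries with 1 coefficient per group. The fit had 5 residual and 4.84 prior degrees of freedom, so an SE pools the spread of the 5 groups. Benjamini-Hochberg adjustment ran over all features. Replicates are biological per the series' design text. On simulated data this fit made more false calls than its threshold allows, so its adjusted p-values may be too small. Limma voom on the simulated reads came near the threshold. Most simulated features did not change, unlike in these data, and the reads were drawn from a count model, which may favour voom. The share of false calls in these data was not tested. Motifs, counting intervals and plots used Python 3.11.15, pandas 2.3.3, scipy 1.17.1 and matplotlib 3.10.9.

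The 10 genes, the lists and the tests were chosen with earlier results of these data known. All 10 genes are named throughout. From each list of other meiotic genes, those with the largest called rise and the largest called fall are named where both mutant libraries lie beyond both controls. The relative scale without a filter was added after seeing the data. Alternatives were other pseudocounts, filters and scalings, a fit without trend, fits of the compared groups alone, voom, a replicate block and each library left out. ZIP3 is listed under CST9 in RefSeq.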

Additional observations from a re-analysis of the deposited data

How the results depend on the processing

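All 8 genes that passed the filter were called higher in each mutant with each library left out (8 to 8), with voom, with either other pseudocount and with no trend. The replicate block changed no call: the counts stayed at 8 in each mutant, and same-numbered libraries did not deviate together (correlations of -0.02, 0.01 and -0.01), so the numbers were not taken to pair the samples. A stricter filter (mean density of at least 0.0785) kept only 4 of the genes. It left 4 higher in each mutant, 0 higher in dbp2 against xrn1, 1 higher in the Mtr4 effect minus the Xrn1 effect, and 1 higher and 1 lower in the Mtr4 effect minus the Dbp2 effect, because fewer genes were tested.

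Rescaling on the median protein-coding gene, with or without the filter, or on the median of all features moved more, since it removes the shift shared by most RNAs. In xrn1 against WT it left 5 higher (6 of 10 with no filter) and 1 lower. IME1 turned to -0.20 on protein-coding genes and -0.32 on all features, and NDT80 to -0.65 and -0.77. In dbp2 against xrn1 the counts were 5 higher and 2 lower, with RIM4 at 0.70 and 0.65 and MEI4 at 0.55 and 0.50. For the Mtr4 effect minus the Xrn1 effect, 7 were higher on protein-coding genes with no filter, SPO13 turned to 0.65, and MEI4 to 0.53 on protein-coding genes and 0.10 on all features. For the Mtr4 effect minus the Dbp2 effect, MEI4 was at -0.02 and -0.40, and at -0.01 with the smaller pseudocount and -0.03 with voom, all around a reported 0.00, while on all features IME2 was called at -0.49 and NDT80 was not, at 0.22. Between WT-Dox and WT, 1 gene was higher under either rescaling, and also with no trend, and SPO20 turned to 0.06.

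With 1 library left out, the other counts of calls ran from 3 to 3 higher and 4 to 4 lower in dbp2 against xrn1, from 2 to 4 higher and 2 to 3 lower in the Mtr4 effect minus the Xrn1 effect, and from 2 to 3 in both directions for the Mtr4 effect minus the Dbp2 effect. Without 1 library, sign changes were seen only among values that were not called. The Mtr4 effect minus the Xrn1 effect of IME1 ran from -0.21 to 0.32, below 0 in 4 fits. It was -0.02 with the larger pseudocount, and was called at 1.03 (adjusted p = 0.021) after rescaling on the median protein-coding gene. The Mtr4 effect minus the Dbp2 effect of MEI4 ran from -0.15 to 0.15, below 0 in 4 fits, and that of IME2 from -0.36 to 0.02, above 0 in 1. In WT-Dox against WT, IME1 ran from -0.52 to 0.02, REC104 from -0.32 to 0.01, MEI4 from -0.03 to 0.27 and SPO20 from -0.28 to 0.24. The SPO20 call in the Mtr4 effect minus the Xrn1 effect was also lost with voom (0.71, adjusted p = 0.11), with the smaller pseudocount (0.66, adjusted p = 0.14) and in a fit of the compared groups alone (0.64, adjusted p = 0.054). Depth limits IME4 and SPO13 most, with 3 and 4 reads over both WT libraries.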
